A study of Mus musculus with 30 samples.

Results

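Transcripts of the proteasome and of the factors that assemble it were followed in a mouse myoblast line that was kept under myogenic conditions or driven towards bone by bone morphogenetic protein 2 (BMP2). The members were all genes on the array whose current symbol begins with *Psma*, *Psmb*, *Psmc*, *Psmd*, *Psme* or *Psmg*, which gave 48 of 18194 measured genes on 99 probe sets. Of these, 46 encode subunits, activators or assembly factors, and 2 do not: *Psmc3ip*, a recombination factor that binds a cap ATPase, and *Psme3ip1*, a protein that interacts with the PA28γ activator. The 46 comprise 8 core α genes, 7 constitutive core β genes, 4 immunoproteasome or thymus β genes, 6 ATPases and 3 other subunits of the cap base, 8 subunits of the cap lid, 3 other activators and 7 assembly factors. *Psme2* is not among them because its 1 probe set carries a second symbol. Each gene was read from its brightest probe set, and 25 of the 46 have further ones.

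The 26S proteasome degrades proteins that carry ubiquitin chains. Its barrel-shaped core is built of α rings, which gate entry, around β rings, which hold the proteolytic sites, and a cap of ATPases and non-ATPase subunits recognizes, unfolds and feeds in the substrate. Dedicated chaperones put the core and the cap together, activators other than the cap can open the core, and interferon exchanges the catalytic β subunits for immunoproteasome forms that favour peptides for antigen presentation. In muscle the ubiquitin-proteasome route is the main path by which contractile proteins are broken down.

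The arrays came from C2C12 cells, a mouse myoblast line that forms myotubes at confluence in low serum and osteoblast-like cells with BMP2. The control line C2C12-pMirn0 carried the empty lentiviral vector, in which copGFP is expressed, and C2C12-pMirn378 carried the same vector with the *miR-378* precursor behind a CMV promoter, so both lines were transduced, sorted for copGFP and are each a single transduced population. The line names and the study's methods assign the vectors so, while the design text of the series lists them in the opposite order, and the names were followed in every line comparison. Cells were harvested at d0, after a day of plating in growth medium, and at d3 and d6 after a switch to low serum, either without addition (untreated, the myogenic condition) or with 300 ng/ml BMP2, which gave 10 groups of 3 arrays, 30 in all. The study describes the 3 samples of a group as biological replicates from triplicate experiments, all of 1 transduced line, so p-values measure the spread between such cultures.

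Muscle and bone genes followed the labels for BMP2, which is no check of the line. The summed average expression values (AEVs) of 7 muscle genes (*Myog*, *Ckm*, *Tnnc2*, *Actn3*, *Mef2c*, *Acta1*, *Casq2*) lay between 24562 and 24910 in the control arrays at d0, between 97682 and 123340 in the untreated control arrays and between 13257 and 19441 with BMP2, and in C2C12-pMirn378 between 94289 and 117127 untreated and 8509 and 18216 with BMP2. Of 5 osteoblast genes 3 had a probe set that carries their symbol alone. The other genes, *Runx2* and *Bglap*, were left out here, though the study shows both on these arrays. The sum of *Sp7*, *Alpl* and *Dlx5* was 136 to 201 in the untreated control arrays and 2685 to 3560.2 with BMP2. In C2C12-pMirn378 it was 135 to 197 untreated and 5964 to 7678 with BMP2. The mean of *Dlx5* was below the median of all values (76.5) in every control group. With BMP2 in C2C12-pMirn378 *Dlx5* averaged 159 at d3 and 148.5 at d6. The 3 endothelial genes were dim, and the sum of 4 epithelial genes lay between 165 and 466. Within it *Cdh1* averaged 172 and 200 in untreated control cells (d3, d6) and 55.2 and 25.7 with BMP2. *Epcam* averaged 140 and 106 untreated and 215 and 258 with BMP2, and both genes had the same directions in C2C12-pMirn378. Of 6 leukocyte genes 3 were dim, with *Ptprc*, which defines leukocytes, near the lowest signals of the array. The leukocyte sum was 448 to 625 in untreated arrays and 969 to 1205 (control) and 1901 to 2104 (C2C12-pMirn378) with BMP2 at d3. This sum was carried by *Cd14* and *Csf1r*, and its part in the values below was not tested. Array medians ran from 68.0 to 82.7 and bright members had a median replicate SD of 0.077 on the log2 scale. In whole cultures, fewer cells of a type and less RNA per cell cannot be told apart.

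Proteasome transcripts were lower with BMP2 than in untreated cultures of the same day, in both lines and at both times. A gene was called when its adjusted p was under 0.005 and its log2 ratio lay beyond 0.6 in either direction. At d3 in the control line 11 of the 46 genes were lower and 0 higher, against 8.48% of all genes called lower and 11.2% called higher, and the median log2 ratio of the 46 was -0.46, against 0.05 over all genes. At d6 in the control line 10 were lower and 2 higher, the chaperone genes *Psmg1* and *Psmg4*, against 10.6% and 11% of all genes, with a median of -0.28 against 0.08. C2C12-pMirn378 cells had 21 lower and 0 higher at d3, against 9.84% and 13.3%, with a median of -0.53 against -0.03, and 11 lower and 0 higher at d6, against 11.1% and 10.8%, with a median of -0.35 against -0.03. The counts of 0 higher stood beside 35, 40 and 40 members with an unadjusted p under 0.05 in either direction by limma in those 3 comparisons.

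Most of the shifts were small and in the same direction. Without the limit on size, 31, 22, 38 and 23 members fell (adjusted p under 0.005, in the order control d3, control d6, C2C12-pMirn378 d3, C2C12-pMirn378 d6, kept below), against 12.3%, 14.9%, 14.7% and 15.2% of all genes. All 3 BMP2 arrays lay below all 3 untreated arrays for 34, 33, 39 and 35 members, against 21.4%, 23.9%, 24.9% and 25.3% of all genes. Proteasome probe sets are bright, and bright probe sets are measured with less noise, so the 42 members above the median of all values (76.5) were set beside the 10969 genes above it: 13.2%, 16.3%, 15.0% and 16.8% of these bright genes were called lower, and 44.1%, 45.3%, 46.3% and 46.9% had a ratio below 0, where 40, 34, 40 and 37 of the 42 bright members did. By adjusted p alone 19.5%, 23.3%, 23.2% and 23.5% of the bright genes fell. All 3 BMP2 arrays lay below all 3 untreated arrays for 28.9%, 33.2%, 32.3% and 32.4% of them. The 4 dim members were *Psma8*, *Psmb8*, *Psmb9* and *Psmb11*, and none of these 4 was called. Muscle gene sums were lower and osteoblast gene sums higher in the same BMP2 arrays, and the part of this change of cell state in the proteasome values was not tested. Counts of lower members were 3, 5, 9 and 7 when each comparison was fitted on its own 6 arrays. The share of all genes called under that fit was not counted, and the shares above do not apply to it.

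**Figure D1:**
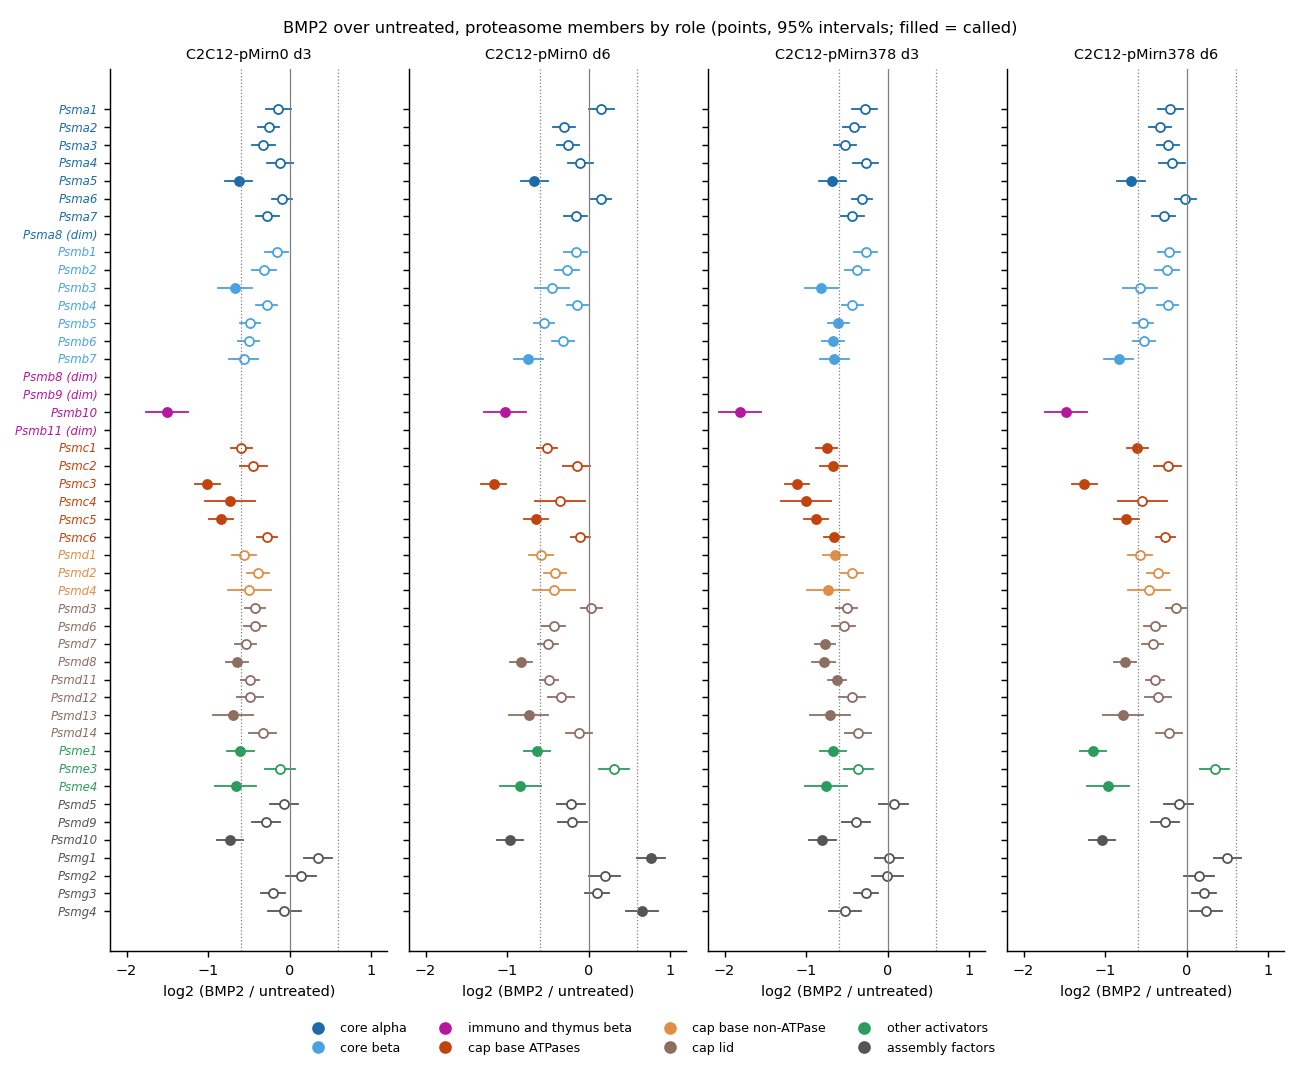
Log2 ratio of BMP2 over untreated for each of the 46 subunit, activator and assembly genes, in the control line and in C2C12-pMirn378 at d3 and d6 (4 panels). Points are the ratios from 3 arrays against 3, bars their 95% intervals, colours the roles, filled points the genes called at 0.6 (dotted lines), and dim members are listed without a point; in every panel most points lie left of 0, while *Psmg1* and *Psmg4* lie right of it at d6.

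9 genes were called lower in all 4 comparisons: the core subunits *Psma5* and *Psmb10*, the ATPases *Psmc3* and *Psmc5*, the lid subunits *Psmd8* and *Psmd13*, the base chaperone *Psmd10* and the activators *Psme1* and *Psme4*. The 4 comparisons share no arrays. All 11 genes called at d3 in the control line were among the 21 of C2C12-pMirn378, which is 100% of the first list and 52.4% of the second, and all 10 of d6 were among the 11, or 100% and 90.9%. Shares of all genes called lower in all 4 comparisons, or in both lines, were not counted, so these overlaps have no reference. *Psmb10*, *Psmc3* and *Psmc5* kept their 4 calls under every alternative setting tried.

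Member promoters were searched for motifs of factors known to act on proteasome or antigen-presentation genes. Stretches of 30 bases are shown around the antioxidant and interferon matches of 4 of the 9 genes called lower in all 4 comparisons. Whether the motifs bear on the BMP2 ratios was not tested. RefSeq promoters (GRCm38.p6, 250 bases before to 50 after the start) were held for 38 of the 46 members, and 5 motifs were searched on both strands: the CCAAT box bound by NF-Y, the antioxidant response core of NRF1 and NRF2 as TGACNNNGC and as TGAGNNNGC, the STAT site TTCNNNGAA, and the interferon response element, GAAA and GAAA with 2 free bases between them. Capitals mark the match, and positions count from the start site. *Psmd13* holds a TGAGNNNGC match just after the start, *Psma5* holds one there as its complement, *Psme4* holds TGACNNNGC as its complement, and *Psme1*, an interferon-induced gene, holds the interferon element as its complement 10 bases after the start.
Psma5 chr3:108256924-108256953 (plus strand, first motif base at 9): ccaaagcgcgGCGTGCTCActcctcgacga
Psmd13 chr7:140882385-140882414 (plus strand, at 2): gtgccggaagTGAGCGAGCacttccgtgcg
Psme1 chr14:55578493-55578522 (plus strand, at 10): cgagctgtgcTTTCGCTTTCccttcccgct
Psme4 chr11:30771758-30771787 (plus strand, at -7): cgctgcggctGCAGCGTCAccagaagagcc

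*Psmb10*, *Psmc5* and *Psmd8* hold none of the 5 in this window, and *Psmc3* is not in the promoter table. Over all 38 promoters CCAAT was found in 36.8%, against 41.1% of 27025 genes, TGACNNNGC in 15.8% against 14%, TGAGNNNGC in 31.6% against 19.8%, TTCNNNGAA in 7.89% against 9.55%, and the interferon element in 13.2% (*Psmb3*, *Psmd4*, *Psmd9*, *Psme1*, *Psmg4*) against 3.99%. TGACNNNGC and TGAGNNNGC cannot match at the same bases of a strand, and a match describes letters, not binding.

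The α subunits, which form the outer rings and gate of the core, had the medians nearest 0 among the core and cap groups, -0.27, -0.13, -0.42 and -0.25 with BMP2, and *Psma5* was the only one of 8 called. *Psma5* read 10545, 12361 and 12199 at d0, 11340.0, 11110.0 and 10635 at d3 untreated, 11223, 12044 and 11146 at d6 untreated, 6444, 7649.8 and 7416 at d3 with BMP2, and 7289, 7549.7 and 6847 at d6 with BMP2 in the control line. *Psma5* in C2C12-pMirn378 read 11076, 11212 and 11219 at d0, 10624, 11754 and 12280.5 at d3 untreated, 11526, 11874 and 10559.9 at d6 untreated, 7317, 6662 and 7653 at d3 with BMP2, and 6886, 7147 and 7113 at d6 with BMP2. All 12 BMP2 arrays lay between 6444 and 7653, below the 18 arrays of d0 and untreated cultures, which started at 10545. Its log2 ratios were -0.62, -0.67, -0.68 and -0.68 (SE 0.08 each, adjusted p 1.33e-06, 4.58e-07, 3.16e-07 and 3.27e-07), and without replicate 1 of the control d3 BMP2 arrays that of control d3 was -0.55, under the size limit. When all probe sets of the gene were averaged, *Psma5* was not called in any of the 4 comparisons. Among the rest, *Psma2* fell in each comparison (-0.26, -0.30, -0.41 and -0.32), while *Psma1*, *Psma4* and *Psma6* had ratios between -0.32 and 0.16. *Psma8*, the testis form of an α subunit, was dim, with 3.83, 23.5 and 17.1 at d0, 38.9, 22.1 and 25.0 at d3 untreated, 4.43, 4.72 and 4.91 at d6 untreated, 12.4, 24.6 and 8.44 at d3 with BMP2, and 13.9, 17.9 and 10.5 at d6 with BMP2 in control cells and 2.56, 21.7 and 11.7 at d0, 17.6, 26.2 and 22.5 at d3 untreated, 20.7, 29.6 and 32.9 at d6 untreated, 2.89, 5.80 and 7.11 at d3 with BMP2, and 8.98, 4.83 and 12.8 at d6 with BMP2 in C2C12-pMirn378. None of the 4 BMP2 ratios of *Psma8* passed.

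The constitutive β genes encode the inner rings, of which *Psmb6*, *Psmb7* and *Psmb5* encode the caspase-like, trypsin-like and chymotrypsin-like active sites. Their medians were -0.48, -0.31, -0.61 and -0.52, with 1, 1, 4 and 1 of 7 called lower. *Psmb5* read 6769.8, 6567 and 6522 at d0, 6998, 6616 and 7637 at d3 untreated, 7575, 7779 and 7447 at d6 untreated, 5095, 5084 and 4993 at d3 with BMP2, and 5055, 5227 and 5302 at d6 with BMP2 in the control line. *Psmb5* in C2C12-pMirn378 read 6954, 6774 and 6652 at d0, 7346, 7635 and 7493 at d3 untreated, 7925, 7294 and 6901 at d6 untreated, 4901, 5089 and 4785 at d3 with BMP2, and 5173, 5225 and 4831 at d6 with BMP2. No BMP2 array reached any d0 or untreated array of its line, and the log2 ratios were -0.48, -0.55, -0.61 and -0.54 (SE 0.06), each with an adjusted p of 9.69e-07 or less, though the call at -0.61 was lost without the C2C12-pMirn378 untreated replicate 2 (-0.59) or BMP2 replicate 3 (-0.58) of d3. *Psmb6* read 6235, 6615 and 6129 at d0, 7282, 7232 and 7954 at d3 untreated, 8212, 8199 and 7726 at d6 untreated, 5449, 5277 and 5146 at d3 with BMP2, and 6409.8, 6544 and 6458 at d6 with BMP2 in the control line. *Psmb6* in C2C12-pMirn378 read 6256, 6527 and 6369.6 at d0, 7591, 7444 and 7706 at d3 untreated, 8114, 7686 and 7024 at d6 untreated, 4945, 4721 and 4629 at d3 with BMP2, and 5486, 5454 and 4939 at d6 with BMP2. On average the untreated arrays of *Psmb6* were the highest and the d3 BMP2 arrays the lowest, with ratios of -0.50, -0.31, -0.67 and -0.52 (SE 0.06, adjusted p 9.51e-07, 0.000322, 8.59e-09 and 4.52e-07), while at d6 the control BMP2 arrays overlapped d0. *Psmb7* read 2591, 2394 and 2587 at d0, 3214, 2897 and 3001 at d3 untreated, 3973, 4718 and 3588 at d6 untreated, 2081, 1966 and 2108 at d3 with BMP2, and 2212, 2437 and 2668 at d6 with BMP2 in the control line. *Psmb7* in C2C12-pMirn378 read 2561, 2509 and 2695 at d0, 3128, 2975 and 2818 at d3 untreated, 3346, 3687 and 3609 at d6 untreated, 1871, 1947 and 1857 at d3 with BMP2, and 2096, 1988 and 1893 at d6 with BMP2. *Psmb7* was highest in untreated cultures at d6 and, on average, lowest with BMP2, with ratios of -0.57, -0.74, -0.65 and -0.83 (SE 0.09, adjusted p 1.47e-05, 2.84e-07, 1.77e-06 and 4.88e-08). *Psmb3*, a structural β subunit, was called at d3 in both lines (-0.67 and -0.81), whereas *Psmb1*, *Psmb2* and *Psmb4* lay between -0.43 and -0.14.

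Of the immunoproteasome subunits, which replace *Psmb6*, *Psmb5* and *Psmb7* in the order *Psmb9*, *Psmb8*, *Psmb10*, only *Psmb10* had a signal above the median of all values, and it had the strongest fall with BMP2 of any bright member at d3 in both lines. *Psmb10* read 465, 437 and 396 at d0, 492, 488 and 483 at d3 untreated, 408, 406 and 396 at d6 untreated, 168, 156 and 193 at d3 with BMP2, and 204, 201 and 191 at d6 with BMP2 in the control line. *Psmb10* in C2C12-pMirn378 read 442, 365 and 419.8 at d0, 542, 528 and 703 at d3 untreated, 554, 518 and 498 at d6 untreated, 154, 156 and 195 at d3 with BMP2, and 167, 228 and 174 at d6 with BMP2. The 12 BMP2 arrays lay between 154 and 228 and the other 18 between 365 and 703, so the groups did not overlap. Its log2 ratios were -1.51, -1.02, -1.81 and -1.48 (SE 0.12, adjusted p 1.19e-09, 4.87e-07, 4.27e-11 and 1.44e-09), which leaves 0.352, 0.493, 0.286 and 0.359 of the untreated level. *Psmb8* was dim: the control arrays gave 9.27, 11.4 and 21.3 at d0, 34.3, 2.41 and 12.3 at d3 untreated, 7.39, 5.21 and 6.29 at d6 untreated, 3.15, 5.71 and 5.33 at d3 with BMP2, and 3.70, 21.1 and 6.15 at d6 with BMP2. *Psmb8* in C2C12-pMirn378 read 27.7, 24.4 and 10.4 at d0, 3.15, 10.7 and 33.5 at d3 untreated, 9.26, 27.2 and 15.4 at d6 untreated, 8.48, 16.6 and 6.59 at d3 with BMP2, and 4.54, 4.66 and 25.8 at d6 with BMP2. Replicates of a *Psmb8* group often differed more than the groups did, and no ratio had an adjusted p under 0.005 (-1.14 with an SE of 0.90 at control d3). *Psmb9* gave 50.6, 81.7 and 46.6 at d0, 38.1, 44.3 and 59.1 at d3 untreated, 24.7, 44.1 and 24.8 at d6 untreated, 68.9, 15.7 and 33.2 at d3 with BMP2, and 50.1, 35.2 and 37.6 at d6 with BMP2 in the control line. *Psmb9* in C2C12-pMirn378 read 23.0, 52.8 and 66.1 at d0, 16.9, 30.8 and 45.3 at d3 untreated, 9.03, 23.9 and 35.8 at d6 untreated, 36.0, 18.6 and 15.8 at d3 with BMP2, and 43.0, 44.7 and 35.4 at d6 with BMP2. Treated and untreated arrays of *Psmb9* overlapped in each of the 4 comparisons, and its ratios, -0.49, 0.43, -0.39 and 1.05 with an SE of 0.53, did not pass. *Psmb11*, the thymus-specific subunit, was dim as well (mean of 16.9).

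The ATPases of the cap base, which unfold substrate and thread it into the core, had medians of -0.66, -0.43, -0.82 and -0.57, with 3, 2, 6 and 3 of 6 called lower. All 6 fell at d3 in both lines by adjusted p. *Psmc3* read 6244, 6522 and 6435 at d0, 10272, 9679 and 11563 at d3 untreated, 12396, 12548 and 11848 at d6 untreated, 5179.8, 5214 and 5218 at d3 with BMP2, and 5204, 5803 and 5409.7 at d6 with BMP2 in the control line. *Psmc3* in C2C12-pMirn378 read 6543, 6562 and 6727 at d0, 11162, 11380.0 and 11412 at d3 untreated, 12380.2, 11671 and 10538 at d6 untreated, 5226, 5528 and 4971 at d3 with BMP2, and 4973, 5075 and 4429 at d6 with BMP2. These values form separate layers, with 4429 to 5803 under BMP2, 6244 to 6727 at d0 and 9679 to 12548 in untreated cultures, so untreated arrays of *Psmc3* lay above d0 and BMP2 arrays below it. Its BMP2 ratios were -1.01, -1.17, -1.11 and -1.26 (SE 0.07, adjusted p 1.49e-10, 1.07e-11, 2.22e-11 and 2.95e-12), or 0.497, 0.446, 0.463 and 0.419 of the untreated level. *Psmc5* followed with -0.84, -0.64, -0.88 and -0.74 (SE 0.07). *Psmc4* was called at d3 (-0.73 and -1.00), the control value being -0.59 without BMP2 replicate 1, and at d6 its ratios were -0.35 and -0.54. *Psmc1* had -0.59, -0.51, -0.75 and -0.60, and its call at C2C12-pMirn378 d6 was lost without any 1 of 4 arrays (untreated replicates 1 and 2, BMP2 replicates 1 and 3; -0.58 to -0.59). *Psmc2* and *Psmc6* passed the size limit at C2C12-pMirn378 d3 (-0.66 and -0.66), with control values of -0.44 and -0.28.

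The remaining base subunits include the large scaffolds *Psmd1* and *Psmd2* and the ubiquitin receptor *Psmd4*. Ratios of *Psmd1* were -0.56, -0.59, -0.64 and -0.58, those of *Psmd2* -0.39, -0.41, -0.44 and -0.36, and those of *Psmd4* -0.49, -0.42, -0.73 and -0.46, with calls for *Psmd1* and *Psmd4* in C2C12-pMirn378 at d3. Lid subunits, which surround the deubiquitinase that removes ubiquitin chains, had medians of -0.49, -0.46, -0.58 and -0.39, with 2, 2, 4 and 2 of 8 called. *Psmd8* had ratios of -0.65, -0.83, -0.79 and -0.76 (SE 0.07), with -0.59 at control d3 without untreated replicate 3. *Psmd13* had -0.69, -0.74, -0.70 and -0.78 (SE 0.12), with -0.55 at C2C12-pMirn378 d3 without BMP2 replicate 3. A dimmer probe set of *Psmd13* went the other way at control d6 (0.49, adjusted p 0.0876), and with its probe sets averaged the gene was not called in any of the 4 comparisons (-0.29, -0.19, -0.28 and -0.54). *Psmd11* and *Psmd7* were called at C2C12-pMirn378 d3 (-0.62 and -0.77), and a second probe set of *Psmd7*, with a mean of 191, was higher with BMP2 in the control line (0.66 and 0.71 at d3 and d6, adjusted p 0.00434 and 0.00193), so the probe sets of this gene disagree. *Psmd14*, the deubiquitinase of the lid, had -0.33, -0.12, -0.36 and -0.22, *Psmd6* -0.43, -0.43, -0.54 and -0.39, *Psmd12* -0.49, -0.34, -0.44 and -0.35 and *Psmd3* -0.43, 0.03, -0.50 and -0.13.

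Activators other than the cap did not move as a block. *Psme1* encodes PA28α, which with PA28β forms an interferon-inducible ring on the core. It read 1393, 1104 and 1122 at d0, 1534, 1636 and 1473 at d3 untreated, 1359, 1284 and 1365 at d6 untreated, 965, 1054 and 1038 at d3 with BMP2, and 869, 906 and 819 at d6 with BMP2 in the control line. *Psme1* in C2C12-pMirn378 read 1231, 1227 and 1229 at d0, 1889, 1857 and 1909.5 at d3 untreated, 1671, 1632 and 1742 at d6 untreated, 1189, 1213 and 1149.6 at d3 with BMP2, and 749, 707 and 820.0 at d6 with BMP2. Each BMP2 array lay below the untreated arrays of its line and day, and the ratios were -0.60, -0.63, -0.67 and -1.15 (SE 0.08, adjusted p 1.43e-06, 6.82e-07, 2.39e-07 and 3.91e-11). The control values sit at the edge of the size limit: -0.56 at d3 without untreated replicate 2 or BMP2 replicate 1, and -0.59 at d6 without BMP2 replicate 3. *Psme4* encodes PA200, a large nuclear activator linked to acetylated histones, and read 3801, 4492 and 3637 at d0, 5951, 4363 and 5909 at d3 untreated, 5363, 6865 and 6191 at d6 untreated, 3146, 3792 and 3238 at d3 with BMP2, and 3374, 3590.1 and 3289 at d6 with BMP2 in the control line. *Psme4* in C2C12-pMirn378 read 4269, 4288 and 3716 at d0, 5939.6, 6136 and 5554 at d3 untreated, 5946, 5976 and 5807 at d6 untreated, 3115, 3726 and 3618 at d3 with BMP2, and 2695, 3193 and 3220.3 at d6 with BMP2. The untreated arrays were higher than all 12 BMP2 arrays, with ratios of -0.66, -0.84, -0.76 and -0.97 (SE 0.12, adjusted p 0.00014, 6.50e-06, 2.42e-05 and 9.12e-07), and at control d3 -0.59 without untreated replicate 1 or 3. 2 further probe sets of *Psme4* were called lower in all 4 comparisons, while a dimmer one was near 0 in C2C12-pMirn378 (0.00058 at d3 and 0.05 at d6). With all its probe sets averaged, *Psme4* was called only at control d6 (-0.73), the other ratios being -0.56, -0.43 and -0.59.

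*Psme3* encodes PA28γ, a nuclear activator tied to proliferation. Its control arrays read 1056, 1085 and 1149.6 at d0, 753, 845 and 898 at d3 untreated, 701, 863 and 795 at d6 untreated, 806, 743 and 743 at d3 with BMP2, and 982, 968 and 973 at d6 with BMP2. *Psme3* in C2C12-pMirn378 read 1184, 1234 and 1141 at d0, 801, 925 and 803 at d3 untreated, 755, 745 and 732 at d6 untreated, 693, 689 and 592 at d3 with BMP2, and 957, 1015 and 867 at d6 with BMP2. Values were highest at d0, and with BMP2 they were lower at d3 than at d6 in both lines, without overlap. The ratios over untreated were -0.12, 0.31, -0.36 and 0.34 (SE 0.09, adjusted p 0.364, 0.00679, 0.00235 and 0.0034), so in C2C12-pMirn378 *Psme3* fell at d3 and rose at d6, below the size limit each time. The change of the BMP2 ratio from d3 to d6, a comparison added after the values were seen, was called for *Psme3* in C2C12-pMirn378 (0.70, SE 0.12, adjusted p 0.000291), against 9.24% of all genes, and not when its probe sets were averaged (0.24, adjusted p 0.846). The interacting protein *Psme3ip1* read 914, 966 and 1016 at d0, 1079, 1116 and 1208 at d3 untreated, 1114, 1261 and 1106 at d6 untreated, 1206, 1145 and 1177 at d3 with BMP2, and 1245, 1361 and 1241 at d6 with BMP2 in the control line. *Psme3ip1* in C2C12-pMirn378 read 790.0, 929 and 826 at d0, 1000.0, 1036 and 1033 at d3 untreated, 1033, 1112 and 1007 at d6 untreated, 1048, 969 and 874 at d3 with BMP2, and 1074, 1082 and 1013 at d6 with BMP2. Its BMP2 ratios were 0.05, 0.15, -0.09 and 0.01 and did not pass.

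Assembly factors had medians of -0.07, 0.10, -0.26 and 0.15 with BMP2, and their members went in different directions. *Psmd10*, known as gankyrin, escorts an ATPase module into the cap base and was called lower in all 4 comparisons. It read 1315, 1203 and 1350.0 at d0, 1678, 1698 and 2010.2 at d3 untreated, 2063, 1954 and 2054 at d6 untreated, 1127, 1121 and 998 at d3 with BMP2, and 1049, 1083 and 985 at d6 with BMP2 in the control line. *Psmd10* in C2C12-pMirn378 read 1078, 1121 and 1038 at d0, 2109.7, 2017 and 1903 at d3 untreated, 2112, 2049 and 1929 at d6 untreated, 1143, 1236 and 1089 at d3 with BMP2, and 952, 982 and 1027 at d6 with BMP2. Untreated arrays lay at 1678 to 2112 and BMP2 arrays at 952 to 1236, with ratios of -0.73, -0.96, -0.80 and -1.04 (SE 0.08, adjusted p 9.08e-08, 8.96e-10, 1.71e-08 and 2.37e-10). Of the other base chaperones, neither was called: *Psmd5* had -0.07, -0.21, 0.07 and -0.10, and *Psmd9* had -0.29, -0.20, -0.39 and -0.27 and fell at d3 in C2C12-pMirn378 (adjusted p 0.000811), below the size limit. *Psmg1* and *Psmg2* form a chaperone pair that seeds the α ring. *Psmg1* read 2199.9, 2474 and 2579 at d0, 1263, 1332 and 1307 at d3 untreated, 1158, 1143 and 1190.2 at d6 untreated, 1511, 1783 and 1675 at d3 with BMP2, and 1988, 1918 and 2024 at d6 with BMP2 in the control line. *Psmg1* in C2C12-pMirn378 read 2273, 2296 and 2204 at d0, 1340.0, 1357 and 1426 at d3 untreated, 1239, 1323 and 1260.2 at d6 untreated, 1369, 1423 and 1377 at d3 with BMP2, and 1571, 2078 and 1793 at d6 with BMP2. BMP2 arrays of *Psmg1* were above untreated ones at d3 and d6 in the control line and at d6 in C2C12-pMirn378, and overlapped them at d3 in C2C12-pMirn378, with ratios of 0.35, 0.76, 0.02 and 0.50 (SE 0.08, adjusted p 0.00194, 7.95e-08, 0.915 and 3.15e-05). *Psmg2* stayed between -0.0032 and 0.20.

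*Psmg4*, which with *Psmg3* forms a later α-ring chaperone pair, read 1240.5, 1358 and 1402 at d0, 1114, 1060.0 and 1166 at d3 untreated, 978, 942 and 1043 at d6 untreated, 1045, 971 and 1189.9 at d3 with BMP2, and 1636, 1589 and 1447 at d6 with BMP2 in the control line. *Psmg4* in C2C12-pMirn378 read 1405, 1393 and 1602 at d0, 1159, 1093 and 998 at d3 untreated, 1094, 1073 and 1052 at d6 untreated, 869, 707 and 700.3 at d3 with BMP2, and 1238, 1373 and 1186 at d6 with BMP2. At d3 the BMP2 arrays of *Psmg4* overlapped the untreated ones in the control line and lay below them in C2C12-pMirn378, and at d6 they lay above them in both lines. The ratios were -0.06, 0.66, -0.52 and 0.24 (SE 0.10, adjusted p 0.712, 6.50e-06, 0.000122 and 0.0631). From d3 to d6 the ratio of *Psmg4* changed by 0.72 (SE 0.13, adjusted p 0.000881) in the control line, where 5.87% of all genes were called, and by 0.75 (adjusted p 0.000322) in C2C12-pMirn378. The call at control d6 was lost when arrays were scaled to the median of bright probe sets (0.599) and when the gene's 2 probe sets were averaged (0.21), the second being dim with a mean of 24.2. *Psmg3* had -0.20, 0.10, -0.26 and 0.21, with no call.

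**Figure D2:**
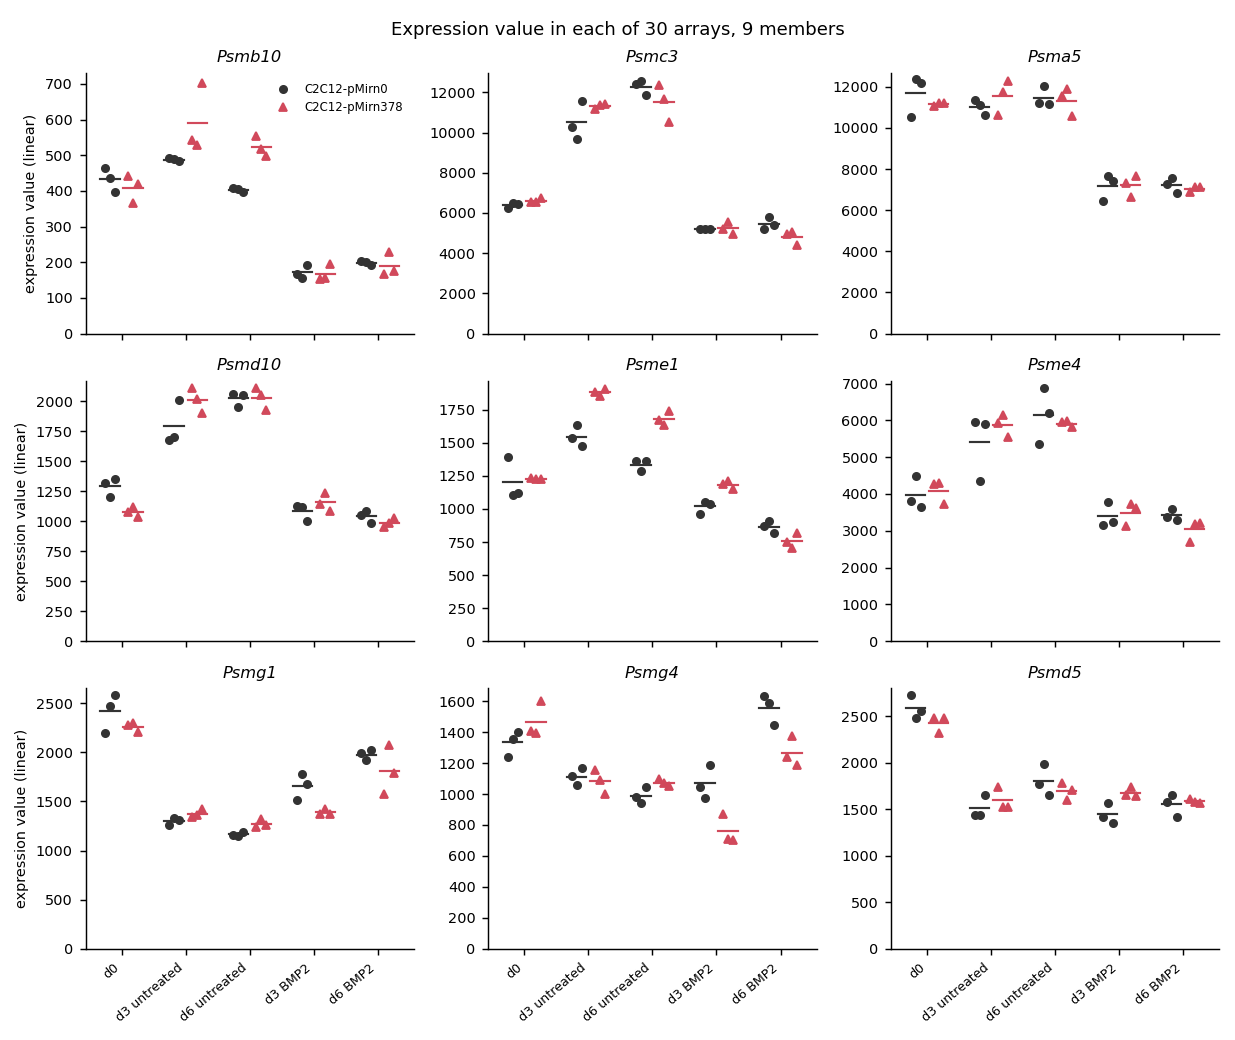
Expression value (linear scale from 0) of 9 members in each of the 30 arrays, by day and treatment. Points are arrays, bars are means of 3, black circles the control line and red triangles C2C12-pMirn378; BMP2 arrays lie lowest for *Psmb10*, *Psmc3* and *Psma5*, while *Psmd5* is highest at d0 in both lines.

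Against d0, the median proteasome transcript was near its d0 level in untreated cultures and below it with BMP2. Both conditions are compared with the same d0 arrays, so the 2 sets of ratios are given side by side only; the call here needed an adjusted p under 0.005 at d6 and an average of the d3 and d6 ratios beyond 0.6. In untreated control cells 2 members were lower, *Psmg1* and *Psmd5*, and 1 higher, *Psmc3*, against 11.7% and 11.5% of all genes, and the median ratio of the 46 was 0.04, or -0.11 when the probe sets of each gene were averaged. With BMP2 4 were lower (*Psmb10*, *Psmd5*, *Psma5*, *Psmd13*) and 0 higher, against 10.2% and 11.6%, with a median of -0.29. Untreated C2C12-pMirn378 cells had 1 lower (*Psmg1*) and 2 higher (*Psmd10*, *Psmc3*), against 11% and 12.8%, with a median of 0.01. With BMP2 they had 5 lower (*Psmb10*, *Psmd13*, *Psmd1*, *Psmd3*, *Psma5*) and 0 higher, against 10.7% and 13.2%, with a median of -0.38, and 10 lower when arrays were scaled to the median of bright probe sets. By adjusted p alone 7 fell and 10 rose in untreated control cells (17.5% and 17% of all genes), 20 and 0 with BMP2 (15.8% and 16.4%), 7 and 8 in untreated C2C12-pMirn378 cells (16.9% and 18.2%), and 30 and 1 with BMP2 (16.6% and 18.4%), the 1 being *Psmg2*.

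*Psmc3* rose most in untreated cultures among the bright members of the control line, with d6 over d0 ratios of 0.94 untreated and -0.23 with BMP2 in the control line and 0.80 and -0.46 in C2C12-pMirn378 (SE 0.07, adjusted p 3.83e-10 in untreated control cells). *Psmb7* and *Psmd10* came next in the control line, at 0.69 and 0.65 untreated and -0.05 and -0.31 with BMP2, and missed the control call because their mean over d3 and d6 was under 0.6. *Psme4* had 0.63 untreated and -0.21 with BMP2 in the control line and 0.53 and -0.43 in C2C12-pMirn378. *Psmb10* had -0.10 untreated and -1.12 with BMP2 in the control line and 0.36 and -1.12 in C2C12-pMirn378 (SE 0.12, adjusted p 1.13e-07 and 1.00e-07 with BMP2). *Psmg1* had -1.05 untreated and -0.29 with BMP2 in the control line and -0.83 and -0.32 in C2C12-pMirn378 (SE 0.08), with an adjusted p of 0.00784 in the BMP2-treated control cells and under 0.005 in the other 3 courses. *Psmd5*, a chaperone of the cap base, read 2729, 2482 and 2555 at d0, 1437, 1441 and 1657 at d3 untreated, 1765, 1986 and 1654 at d6 untreated, 1414, 1567 and 1349 at d3 with BMP2, and 1579.9, 1653 and 1421 at d6 with BMP2 in the control line. *Psmd5* in C2C12-pMirn378 read 2481, 2315 and 2475 at d0, 1739, 1519 and 1528 at d3 untreated, 1782, 1601 and 1710.2 at d6 untreated, 1652, 1736 and 1636 at d3 with BMP2, and 1608, 1581 and 1567 at d6 with BMP2. The 6 arrays of d0 lay at 2315 to 2729 and the other 24 at 1349 to 1986, and the d6 ratios of *Psmd5* were -0.53 untreated and -0.74 with BMP2 in the control line and -0.51 and -0.61 in C2C12-pMirn378 (SE 0.08). *Psmc6*, an ATPase, read 6878, 6928 and 6901 at d0, 8620.1, 8234 and 8472 at d3 untreated, 8795, 8392 and 8509.8 at d6 untreated, 7295, 6916 and 6712 at d3 with BMP2, and 8111, 7597 and 8265 at d6 with BMP2 in the control line. *Psmc6* in C2C12-pMirn378 read 6826, 6199.8 and 6109 at d0, 8586, 8574 and 8389.8 at d3 untreated, 8522, 8062 and 7744 at d6 untreated, 5575, 5411 and 5238 at d3 with BMP2, and 6827, 6915 and 6544 at d6 with BMP2. The d6 over d0 ratios of *Psmc6* were 0.31 untreated and 0.21 with BMP2 in the control line and 0.35 and 0.09 in C2C12-pMirn378.

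By role, the medians of d6 over d0 in untreated control cells were -0.14 for the α subunits, 0.28 for the β subunits, 0.30 for the ATPases, 0.11 for the lid and -0.24 for the assembly factors, and with BMP2 they were -0.22, -0.05, -0.13, -0.34 and -0.16. The recombination factor *Psmc3ip*, which shares the prefix but is no subunit, read 808, 753 and 827 at d0, 394, 325 and 358 at d3 untreated, 364, 356 and 308 at d6 untreated, 224, 274 and 266 at d3 with BMP2, and 189, 243 and 288 at d6 with BMP2 in the control line. *Psmc3ip* in C2C12-pMirn378 read 734, 824 and 633 at d0, 412, 354 and 410.3 at d3 untreated, 326, 383 and 389.5 at d6 untreated, 372, 354 and 341 at d3 with BMP2, and 226, 241 and 221 at d6 with BMP2. *Psmc3ip* fell in all 4 courses (-1.22 untreated and -1.75 with BMP2 in the control line and -0.99 and -1.66 in C2C12-pMirn378). Its BMP2 ratios were -0.50, -0.53, -0.14 and -0.67, called lower in C2C12-pMirn378 at d6. Cell cycle gene sums (*Ccna2*, *Cdk1*, *Top2a*, *Birc5*, *Mki67*) in the control line were 31086 to 32182 at d0, 2967 to 3348 at d6 untreated and 1904 to 1919 at d6 with BMP2, and their part in any of these values was not tested. A list of 54 genes was taken by symbol alone, *Rpl* or *Rps* followed by a digit, to stand for cytosolic ribosomal proteins. Genes that share this prefix without being ribosomal proteins were not set apart. The median of the 54 with BMP2 over untreated was -0.04, 0.11, -0.22 and 0.09, with 2, 1, 5 and 1 called lower. That of the 8 chaperonin subunits, also a large abundant complex, was -0.07, 0.18, -0.34 and 0.10, with 0 called lower in each comparison and 3, 4, 8 and 4 at an unadjusted p under 0.05 in either direction by limma. Beside both lists, 8.48%, 10.6%, 9.84% and 11.1% of all genes were called lower in the same comparisons. Members of the 2 lists called higher are not given here. These lists were not tested against the proteasome.

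**Figure D3:**
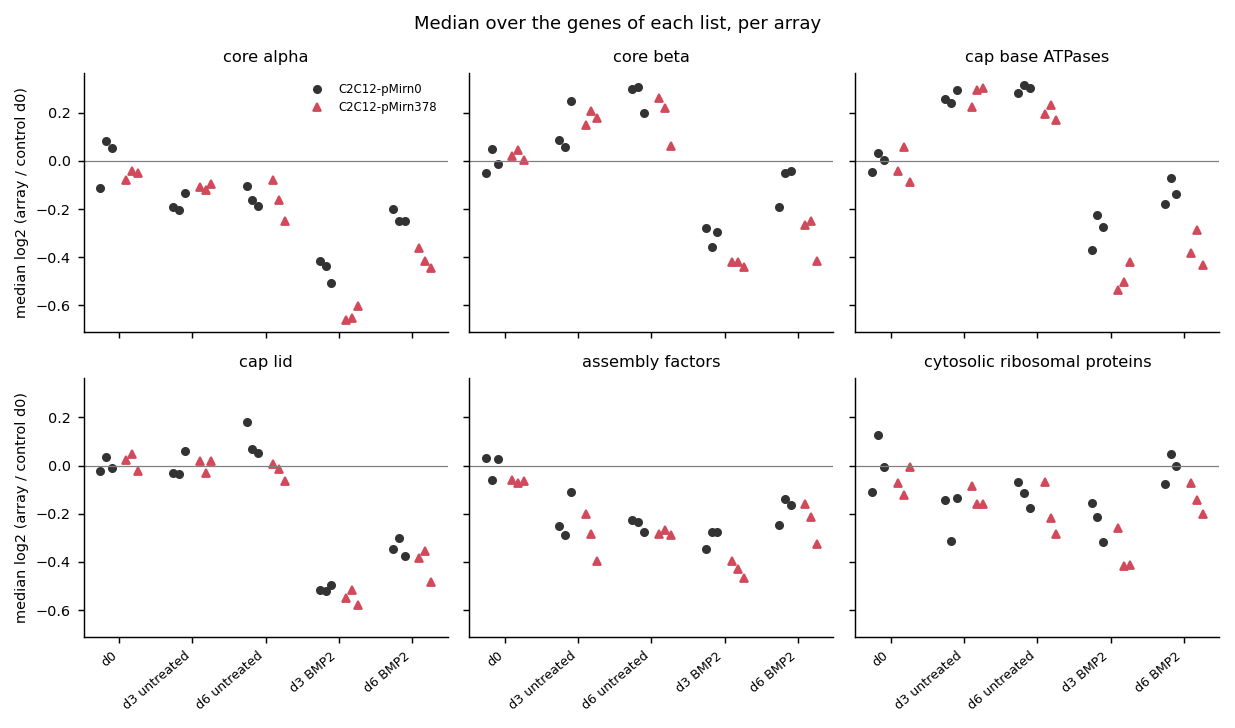
Median over the genes of a role of the log2 value relative to the control d0 mean, for each of the 30 arrays, for core α, core β, ATPases, lid, assembly factors and, beside them, the genes with an *Rpl* or *Rps* symbol (titled cytosolic ribosomal proteins). Points are arrays; in the ATPase panel every untreated array lies above and every BMP2 array below the d0 arrays of its line, and in the β panel 1 control BMP2 array of d6 lies within the d0 range of its line and the other 2 below it.

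The lines were compared to see which transcripts go with raised *miR-378*, whose own level was not analysed here, and no proteasome gene passed the limits. C2C12-pMirn378 over control gave 0 calls among the 46 at d0 (0.83% of all genes called), d3 untreated (0.715%), d6 untreated (0.247%), d3 with BMP2 (4.36%) and d6 with BMP2 (2.86%), and 0 when the lines' responses to BMP2 were compared with each other (the interaction; 2.02% at d3 and 2.05% at d6). By limma, 5, 3, 6, 14 and 15 of the 46 had an unadjusted p under 0.05 in the 5 comparisons, and 6 and 7 in the interactions. The median ratio of the members was -0.0033, 0.05, -0.07, -0.07 and -0.12 (0.0092 in place of the first -0.07, that of d6 untreated, with averaged probe sets). The 95% interval of a bright member reached a median of 0.15 to either side of its ratio, with 3 arrays a group. That width goes with an unadjusted p of 0.05 for a single member. The limits for a call are stricter, in adjusted p and in size, so shifts larger than 0.15 could also go uncalled. By adjusted p alone 0, 0, 0, 2 and 1 members passed, against 1.21%, 0.929%, 0.357%, 9.06% and 5.38% of all genes. At d3 with BMP2 these were *Psmc6* (-0.37, SE 0.06, adjusted p 0.000109) and *Psmg4* (-0.50, SE 0.10, adjusted p 0.000885), and at d6 with BMP2 *Psmb6* (-0.29, SE 0.06, adjusted p 0.00421), all lower in C2C12-pMirn378. The *Psmc6* arrays at d3 with BMP2 read 7295, 6916 and 6712 in the control line and 5575, 5411 and 5238 in C2C12-pMirn378, without overlap.

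*Psme1* had the largest difference between the lines in the response to BMP2 at d6 among the bright members, an interaction of -0.52 (SE 0.11, adjusted p 0.00655), which did not pass. Its untreated AEV was 1336 ± 45.0 in the control line and 1682 ± 55.4 in C2C12-pMirn378 at d6 (SD, n = 3), and with BMP2 864 ± 43.8 and 759 ± 57.2. At d3 the interaction of *Psmc6* was -0.38 (SE 0.08, adjusted p 0.00775). Across the 42 bright members the BMP2 ratios of both lines, which come from separate arrays, ran together with Pearson's r of 0.942 at d3 and 0.938 at d6, a description over genes that are not independent. More members passed the size limit in C2C12-pMirn378 than in control cells at d3, 21 against 11. The interaction gave 0 calls, so no single member was shown to respond differently between the lines. Its signs at d6 were mixed. At d3 it was below 0, a lower BMP2 ratio in C2C12-pMirn378, for every bright member except *Psmd12* (0.05) and *Psmd5* (0.14). All members share the same arrays, and this common sign was not tested. At that time the cell cycle sum with BMP2 was 14328 to 14724 in C2C12-pMirn378 and 3477 to 3897 in the control line, against 3914 to 5172 and 2215 to 2472 untreated, and its part was not tested.

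**Figure D4:**
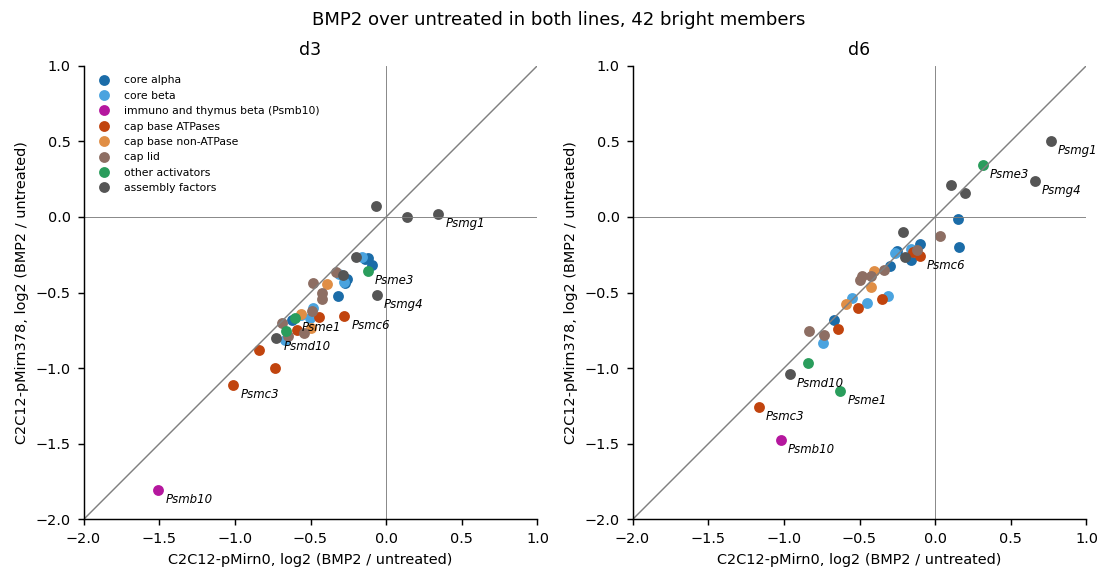
Log2 ratio of BMP2 over untreated in the control line (horizontal) against C2C12-pMirn378 (vertical) for the 42 bright members at d3 and d6, coloured by role, with the diagonal marking equal ratios. Most points lie in the lower left near the diagonal, *Psmb10* lowest at d3 and *Psmg1* and *Psmg4* to the upper right at d6.

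**Figure D5:**
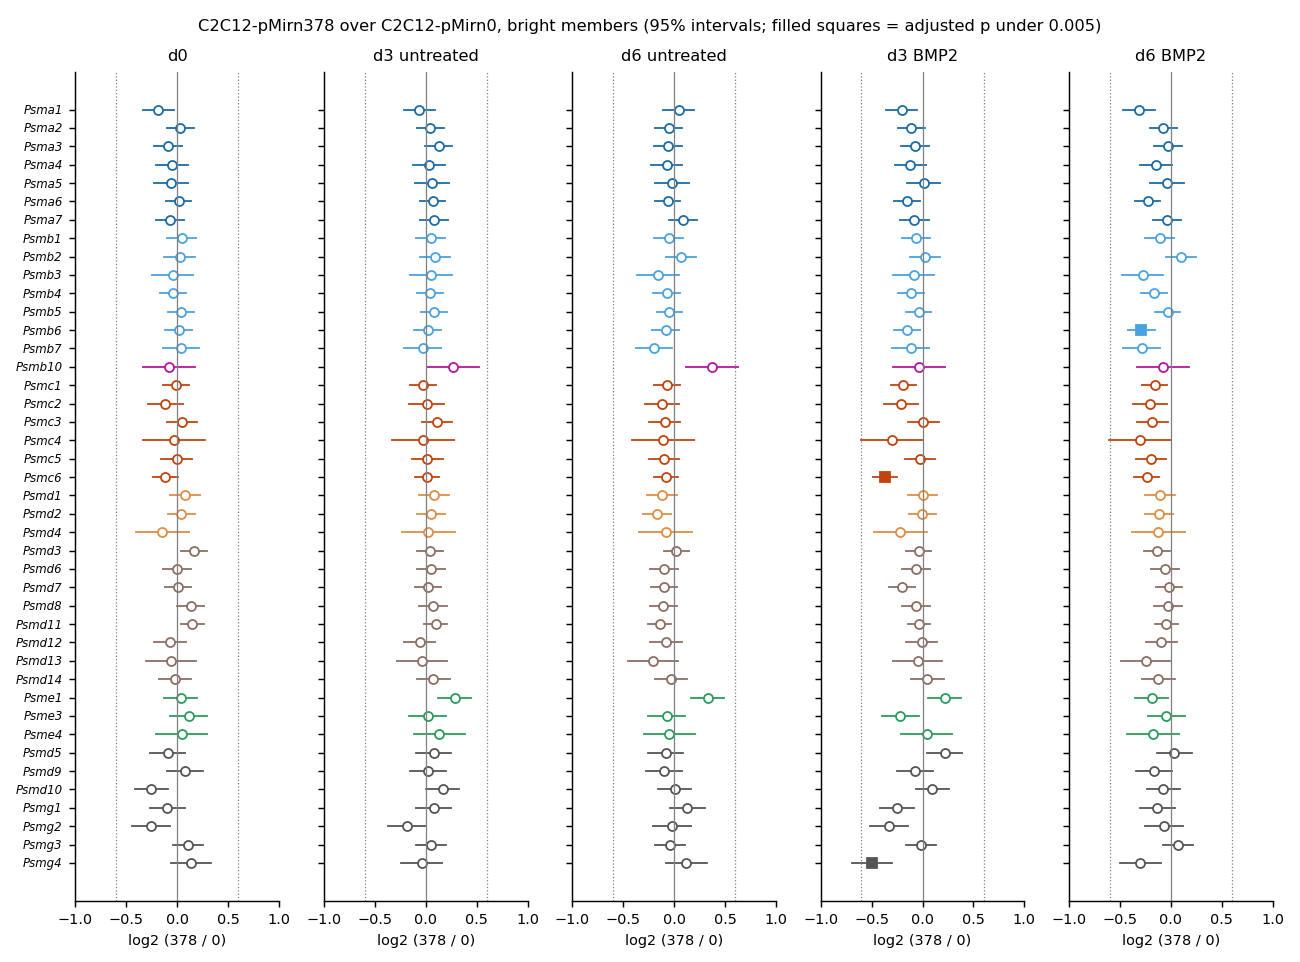
Log2 ratio of C2C12-pMirn378 over control for the bright members at d0, d3 and d6 untreated, and d3 and d6 with BMP2 (5 panels). Points are ratios from 3 arrays against 3, bars 95% intervals, and filled squares mark adjusted p under 0.005: *Psmc6* and *Psmg4* at d3 and *Psmb6* at d6, both with BMP2.

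Genes that work with the proteasome but do not carry its symbols were called in both directions. Of 19 measured partners (chaperones, shuttle factors, deubiquitinases and regulators) 1, 4, 1 and 1 were lower with BMP2 and 1, 0, 0 and 1 higher. Of all genes 8.48%, 10.6%, 9.84% and 11.1% were called lower and 11.2%, 11%, 13.3% and 10.8% higher. *Rad23b*, a shuttle that brings ubiquitinated proteins to the cap, had ratios of -0.79, -0.70, -0.59 and -0.68 (adjusted p 1.19e-10, 7.14e-10, 1.16e-08 and 1.19e-09). *Pomp*, the maturation chaperone of the core, had -0.53, -0.66, -0.59 and -0.48, called at control d6. *Zfand5*, a protein that stimulates the proteasome, had -0.42, -0.46, -0.65 and -0.42, called at C2C12-pMirn378 d3. *Nfe2l2*, which encodes the stress factor NRF2, went up, at 0.61, 0.54, 0.36 and 0.69 (adjusted p 3.32e-08, 1.85e-07, 5.54e-05 and 4.11e-09), while *Nfe2l1*, the factor that raises proteasome genes when the proteasome is inhibited, had -0.34, -0.21, -0.58 and 0.02 and was not called. Of 3 measured muscle ubiquitin ligases 2, 3, 3 and 2 were called lower, beside the same shares of all genes. *Trim63*, the MuRF1 ligase of the sarcomere, had an AEV of 3404 ± 94.0 (SD, n = 3) in untreated control cells at d6 and 122 ± 20.3 with BMP2, and ratios of -4.83, -4.82, -5.29 and -5.37. *Fbxo32*, or atrogin-1, had -0.73, -0.69, -0.75 and -0.48.

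Genes of antigen processing and the interferon response, to which *Psmb10* and *Psme1* also belong, did not share 1 direction: of 17 measured, 3, 2, 2 and 3 were lower and 1, 2, 1 and 2 higher with BMP2. Of all genes 8.48%, 10.6%, 9.84% and 11.1% were called lower and 11.2%, 11%, 13.3% and 10.8% higher. *Gbp2*, *Gbp3*, *Ifit1*, *Ifit3*, *Tap1* and *Nlrc5* had means below the median of all values, where only large changes could be called. *Erap1*, the peptidase that trims peptides for class I molecules, was called lower each time, at -1.54, -1.29, -1.46 and -1.72 (adjusted p 1.54e-07, 1.87e-06, 2.73e-07 and 2.38e-08). *Irf1*, an interferon-induced transcription factor, had -0.75, -0.56, -0.64 and -0.62, and *Tapbp*, the chaperone tapasin, had -0.44, -1.45, 0.24 and -0.91. *H2-D1*, a class I heavy chain whose probes may also bind related chains, was called higher each time, at 0.73, 0.63, 1.30 and 1.21 (adjusted p 2.76e-09, 2.25e-08, 9.45e-14 and 4.04e-13).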

How the data were processed

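Total RNA of 30 cultures was hybridised to 1-colour Affymetrix mouse arrays with 45101 probe sets. The authors summarised probes with RMA, run in R 2.4.1 per the labels and with quantile normalisation per their methods, and deposited the result as intensity values on a linear scale, which were used as deposited. Array medians still ran from 68.0 to 82.7, so the arrays do not share 1 distribution, and other scalings were tried. Probe sets with 1 symbol (34958) were named through the platform annotation, 932 had several symbols and 9211 none.

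Values were taken as log2 and fitted with limma 3.58.1 in R 4.3.3 on the means of all 10 groups with moderated variances, and p-values were adjusted by Benjamini-Hochberg over all probe sets of a comparison. The thresholds follow the study's methods. Because all groups share a variance, a comparison borrows precision from the other arrays. The script was tested on simulated data. The number of arrays and the brightness of a probe set, not a read depth, limit precision.

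The members and gene lists were chosen with earlier results of these data known. Values in every array are given for the catalytic β subunits and their immunoproteasome forms, the activators, and the 3 highest and 3 lowest members at d6 over d0 in each control course (of the 48 and of the 46), and in addition for *Psma5*, chosen after its values were seen. Alternatives were another scaling, quantile normalisation, an offset of 16, a floor of 50, a filter on dim probe sets, averaged probe sets, array weights, a trended robust fit, a fit on the compared groups alone, a replicate block and leaving out each array. Promoter sequence around CCAAT matches is not reported here.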

Additional observations from a re-analysis of the deposited data

Results flagged for a closer look

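The BMP2 log2 ratio differed between the 2 time points, by a test of the difference itself that was added after the values were seen, for 2 members: 1 of 46 was called in the control line, where 5.87% of all genes were, and 2 of 46 in C2C12-pMirn378, where 9.24% were. For *Psmg4*, an α-ring chaperone, the ratio at d6 minus that at d3 was 0.72 (SE 0.13, adjusted p 0.000881 by limma) in the control line and 0.75 (SE 0.13, adjusted p 0.000322) in C2C12-pMirn378, and for *Psme3*, which encodes PA28γ, it was 0.70 (SE 0.12, adjusted p 0.000291) in C2C12-pMirn378. The 3 differences kept their calls without each of the 12 arrays of the line, and lost them when the probe sets of a gene were averaged (0.32, 0.56 and 0.24) and when only the 4 groups concerned were fitted (adjusted p 0.0144, 0.0159 and 0.0160).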

How the results depend on the processing

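Of 70 called member changes, each under 11 alternatives, 695 of 770 kept their call, 75 kept their direction without the call and 0 reversed. Of those lost, 31 went when only the compared groups were fitted, 22 with averaged probe sets, 11 with quantile normalisation, 9 without 1 array, 1 with the offset and 1 with scaling. With only the compared groups, members lower with BMP2 numbered 3, 5, 9 and 7, members higher at control d6 1, and members lower at d6 in untreated control cells 1. Fewer arrays then set the variance, and the share of all genes called under this fit was not counted. Scaling to the median of bright probe sets moved the median of all genes by up to 0.10, to -0.04 at control d3, and gave member medians of -0.56 (control) and -0.63 (C2C12-pMirn378) at d3, 1 member higher at control d6 and 10 lower at d6 over d0 in C2C12-pMirn378 with BMP2. Quantile normalisation gave a median of -0.40 at control d3. Averaged probe sets gave 1 member higher at control d6 and medians of -0.16 (control d6) and -0.44 (C2C12-pMirn378 d3) for BMP2, -0.11 for untreated control d6 over d0, and 0.0092 between the lines at d6 untreated. The offset and the floor gave -0.23 and -0.22 for control BMP2 d6 over d0. The cause of these shifts was not tested. Leaving out 1 array, higher members in untreated control cells ranged from 1 to 2 (2 without d0 replicate 2 or d3 replicate 2), lower members in untreated C2C12-pMirn378 cells from 1 to 2 (2 without d0 replicate 3 or d3 replicate 2), and the C2C12-pMirn378 d3 BMP2 median from -0.61 (without untreated replicate 1) to -0.51. The line comparisons gave 0 calls under every alternative. Same-numbered arrays deviated together little (r from -0.15 to 0.19, median 0.037, over 135 pairs, 19 of them above 0.1). Arrays with different numbers had a median r of -0.016. These values cannot settle whether the numbers pair the arrays. With the replicate as a block the lower counts with BMP2 were 11, 10, 21 and 11 and no call changed. Members dimmer than the median of all values (4 of 46) had replicate SDs of 0.66 to 1.31 on the log2 scale, at which only very large changes could pass.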
